A study of Danio rerio with 14 samples.

Results

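A set of 128 genes was described whose mRNA was higher in zebrafish embryos of parents irradiated at 53 mGy/h and lower in embryos that parents irradiated at 8.7 mGy/h produced 1 year later, each against unexposed controls. The genes were chosen from measured values, namely a log2 change of 2 or more at 53 mGy/h, a log2 change of -1 or less at 8.7 mGy/h after 1 year, and a control level of at least 3 RPM at 1 year, where RPM is a read count scaled to the size of the library. The log2 change is the authors' log2 RPM of the exposed group minus that of its control. The 128 genes came from 12154 genes listed in both comparisons, of which 9875 had the required control level and could therefore meet the rule. The 3 deposited tables together listed 14077 genes. Both changes of every gene in the set were fixed by this choice, so they are given as descriptions without a test.

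The embryos were the F1 generation of AB wild type zebrafish (Danio rerio), collected 5.5 h after fertilization in samples of 100, and their parents had been exposed to gamma radiation while gametes formed or had been left unexposed. The groups were control at 0 yr (2 libraries, since a sample was lost), 8.7 mGy/h at 0 yr (3), 53 mGy/h at 0 yr (3), 8.7 mGy/h at 1 yr (3) and control at 1 yr (3), where 0 yr means bred 1 month after exposure and 1 yr means bred again after 1 year. The 1 yr broods came from the same parents as the 0 yr broods of those groups. No 53 mGy/h group was collected at 1 yr. The 14 libraries hold poly(A)-selected mRNA of whole embryos, so fewer cells of a type and less RNA per cell cannot be told apart. The labels do not say which parents or clutches gave each library.

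At this age the embryo begins gastrulation, after the zygotic genome has been switched on. Until then development runs on mRNA that the mother stores in the egg, and those maternal transcripts are degraded in steps as zygotic transcription takes over. Proteins such as the SoxB1 factor Sox19b, the germ plasm organizer Bucky ball and the translational regulator Cpeb1b are made from such stored mRNA.

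The deposited tables hold 1 value per group and gene and no spread between libraries, so no standard deviation can be given, and whether a difference exceeded the spread rests on the authors' false discovery rate (FDR). An FDR under 0.05 was taken as a call. In counts of gene lists, gene classes and gene pairs, and in the shares of all genes beside them, rose and fell mean called up and called down. The smallest geometric mean depth that reproduced whole reads per library was 27.7 M reads (megareads) in control (0 yr), 25.7 M at 8.7 mGy/h (0 yr), 27.3 M at 53 mGy/h (0 yr), 23.6 M at 8.7 mGy/h (1 yr) and 22.6 M in control (1 yr). The median log2 change over all genes was -0.04 at 8.7 mGy/h (0 yr), 0.12 at 53 mGy/h and -0.09 at 8.7 mGy/h (1 yr). Libraries are not directional, so reads of overlapping genes on opposite strands cannot be separated. RPM is not scaled to gene length, so levels are compared between groups and not between genes.

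The genes with the widest separation between both comparisons were led by hivep3b, a large zinc finger transcription factor gene of the HIVEP family. Its level was 25.7 RPM at 53 mGy/h and 1.71 RPM in control at 0 yr, and 2.43 RPM at 8.7 mGy/h and 6.81 RPM in control at 1 yr. The log2 changes of hivep3b were 3.91 and -1.49. The adaptor gene sh2d5, which encodes an SH2 domain protein, stood at 65.8 RPM at 53 mGy/h and 5.56 RPM in control at 0 yr, and at 5.04 RPM at 8.7 mGy/h and 16.0 RPM in control at 1 yr. This is 11.8-fold higher at 53 mGy/h and 3.17-fold lower at 8.7 mGy/h after 1 year. In GRCz10 hivep3b lies on chromosome 16 from 34367364 to 34387992 on the minus strand, and sh2d5 lies on chromosome 11 from 37371775 to 37383761 on the plus strand. The BTB zinc finger gene zbtb1, needed for lymphocyte development in mouse, had log2 changes of 3.78 at 53 mGy/h and -1.31 at 1 yr. This leading group also held 3 genes with clone names and no role given here besides si:dkey-180p18.9. The log2 changes at 53 mGy/h and at 1 yr were 3.29 and -1.75 for zgc:162879, 3.21 and -1.59 for zgc:163014, and 3.06 and -1.57 for si:ch211-259g3.4.

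Over all 128 genes the median log2 change at 53 mGy/h was 2.51, or 5.69-fold, with a range of 2.01 to 3.91. At 8.7 mGy/h after 1 year the median was -1.24, or 2.36-fold lower, with a range of -1.77 to -1.0. Relative to the median of all genes of each table, the set's medians were 2.39 and -1.15. Every member was called up at 53 mGy/h in the authors' deposited table, where 43.6% of all genes were called and 22.1% were called up, and the highest member FDR was 1.88e-07. Every member was also called down at 1 yr in the authors' deposited table, where 42.4% of all genes were called and 22.4% were called down, and the highest member FDR was 0.0106, that of cux1a. Of the members, 19 have an FDR listed as 0 at 53 mGy/h in the authors' deposited table. Nothing is read from these counts, because the rule used the same changes.

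The genes on either side of each limit of the rule had nearly equal values. At 53 mGy/h uckl1b (2.01), acadl (2.03) and cntln (2.03) were just inside the log2 limit, and prickle2a (2.00 after rounding), tpi1a (2.00 after rounding) and FEZ2 (1 of 2) (1.99) were just outside it. At 1 yr si:ch73-173p19.1 (-1.0), amt (-1.0) and cish (-1.01) were just inside, and sycp2l (-1.0 after rounding), epha4a (-0.99) and spen (-0.99) were just outside. For the control level at 1 yr, ssh1a (3.10 RPM), serac1 (3.21 RPM) and ddhd1a (3.22 RPM) were just inside, and hpca (2.93 RPM) and znf296 (2.62 RPM) were outside, together with a gene at 2.78 RPM whose symbol the table holds as a date.

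**Figure D1:**
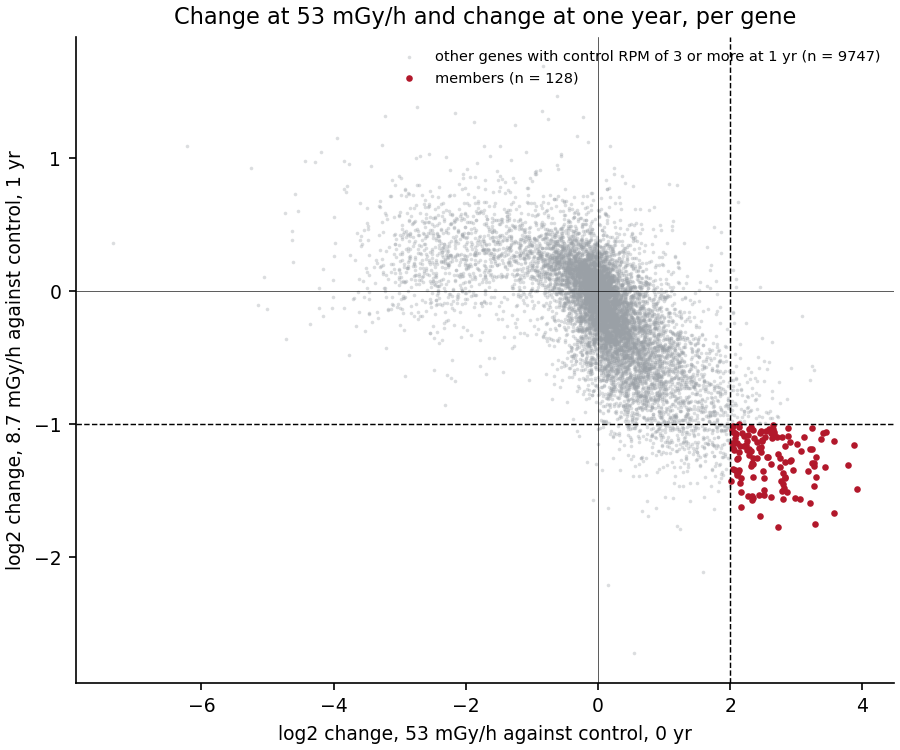
Log2 change at 53 mGy/h, 0 yr (x axis) against log2 change at 8.7 mGy/h, 1 yr (y axis), each exposed group against its control, for the 9875 genes with a control level of at least 3 RPM at 1 yr. The 128 members (red) fill the corner at or beyond 2 and -1 (dashed lines). The upper right corner beyond 2 and 1 is empty, but only 26 of the 9875 genes had a log2 change of 1 or more at 1 yr.

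Among the 9875 genes, 228 had a log2 change of 2 or more at 53 mGy/h and 442 had one of -1 or less at 1 yr. The 128 members were 56.1% of the first list and 29.0% of the second. Of the 228 genes, 223 had a negative log2 change at 1 yr and 0 had one of 1 or more. Among all 9875 genes 39.2% had a positive log2 change at 1 yr, and only 0.263% had one of 1 or more, so little is read from the 0. Of the 442 genes, 436 had a positive log2 change at 53 mGy/h, against 56.4% of the 9875 genes. The reverse pattern held fewer genes, and its count was capped by the 26 genes with a log2 change of 1 or more at 1 yr. Of these 26 genes 10 were also among the 603 with a log2 change of -2 or less at 53 mGy/h. The comparison at 53 mGy/h and that at 1 yr have no library in common. Calls up at 53 mGy/h and down at 1 yr coincided in 1672 of the 12154 genes listed in both, or 13.8%. Across the 9875 genes the log2 changes in both comparisons had a Pearson correlation of -0.66 and a Spearman correlation of -0.71, as a description, since genes are not independent replicates. Within the members, where the rule cut the range of both changes, they were -0.16 and -0.16.

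In the first brood the members were at low levels in controls and at 8.7 mGy/h and at high levels at 53 mGy/h. The median over members was 5.25 RPM in control, 6.89 RPM at 8.7 mGy/h and 33.9 RPM at 53 mGy/h. In the second brood it was 3.90 RPM at 8.7 mGy/h and 8.97 RPM in control. Over the 9875 genes the medians lay closer together, at 18.7, 18.0 and 22.7 RPM in control, 8.7 mGy/h and 53 mGy/h at 0 yr, and at 14.1 RPM at 8.7 mGy/h and 16.2 RPM in control at 1 yr. Summed over the members, the level was 1027 RPM in control, 1258 RPM at 8.7 mGy/h and 6087 RPM at 53 mGy/h at 0 yr, and 679 RPM at 8.7 mGy/h and 1617 RPM in control at 1 yr.

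**Figure D2:**
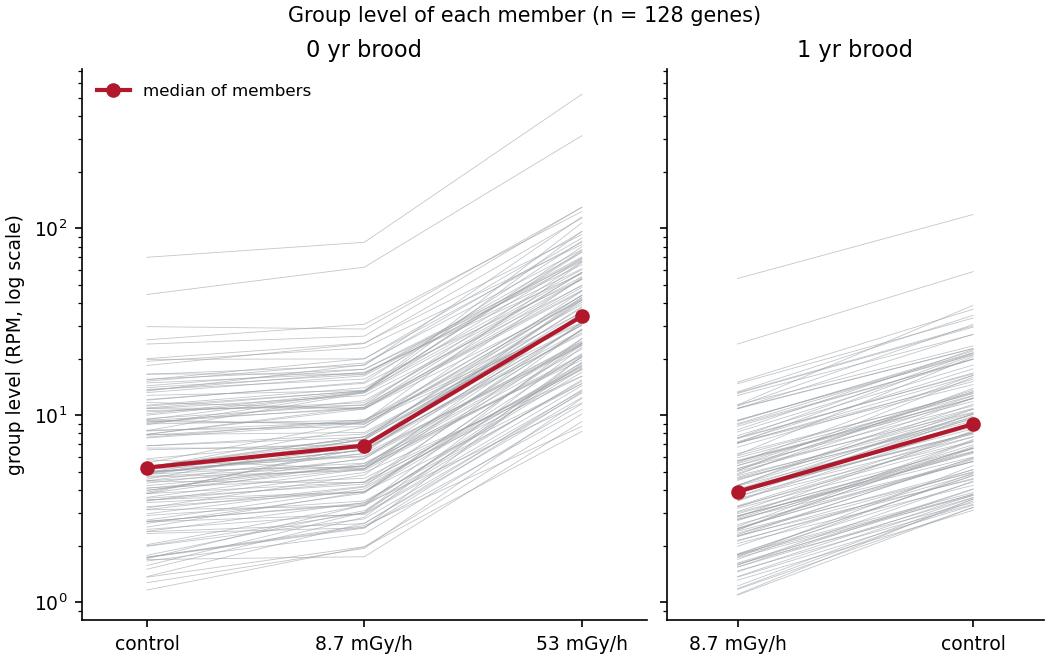
Group level of each of the 128 members in RPM on a log axis (grey lines) and the median over members (red), for the 0 yr brood in order of dose rate and for the 1 yr brood. The median is 5.25, 6.89 and 33.9 RPM in control, 8.7 mGy/h and 53 mGy/h at 0 yr, and 3.90 RPM at 8.7 mGy/h and 8.97 RPM in control at 1 yr.

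The 5 groups followed 1 order in most members. Of the 128 genes, 89 (69.5%) ran, from high to low, 53 mGy/h (0 yr), control (1 yr), 8.7 mGy/h (0 yr), control (0 yr) and 8.7 mGy/h (1 yr). The 53 mGy/h group was highest in all 128, and the lowest group was 8.7 mGy/h (1 yr) in 112 and control (0 yr) in 16. Neighbours in this order could not be tested across broods, because no library values are given and the broods may have been normalized separately. Control at 1 yr was above control at 0 yr in all but 4 of the 128 members, with a median difference of 0.69 on the log2 scale, against -0.17 over the 9875 genes, and the rule favours this, since both a low 0 yr control and a high 1 yr control help a gene to qualify. The 8.7 mGy/h group at 1 yr was below the 8.7 mGy/h group at 0 yr in all 128 members, with a median difference of -0.89, against -0.30 over the 9872 genes with a value. The rule favours this too, since a low 8.7 mGy/h level at 1 yr helps a gene to qualify.

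The 8.7 mGy/h brood at 0 yr was not used to choose the genes, although it shares its control libraries with the 53 mGy/h comparison, so a low control value raises both changes. None of the 128 members was called in the authors' deposited table for 8.7 mGy/h at 0 yr, where 0.294% of all genes were called, 0.151% up and 0.143% down. The lowest FDR there was 0.0641, that of mkl1b, an actin-sensing coactivator of serum response factor, whose level was 6.92 RPM at 8.7 mGy/h and 3.80 RPM in control. In the authors' deposited table the FDR was under 0.5 for 10 members (7.81%, against 1.63% of the 9875 genes) and 0.9 or more for 89 (69.5%, against 93.2%). No unadjusted p is given in the tables.

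The members' log2 changes at 8.7 mGy/h (0 yr) had a median of 0.32, or 1.25-fold, with quartiles of 0.18 and 0.50 and a range of -0.17 to 0.96. The median over the 9872 genes with a value was -0.03. The change was above 0 in 120 members and below 0 in 8, and 43.0% of the 9872 genes were above 0. It was above 0.5 in 33 members and in 1.62% of the 9872 genes. The highest changes were those of hivep3b (0.96), si:ch73-44m9.3 (0.95) and si:dkey-180p18.9 (0.94), with 0 yr control levels of only 1.71, 1.37 and 1.57 RPM. The lowest were those of the deubiquitinase gene usp45 (-0.17), fam129ba (-0.12) and the immunoglobulin-domain receptor gene ildr1b (-0.08). A second identifier with the symbol si:ch73-44m9.3, not a member, had 0.0005 at 8.7 mGy/h (0 yr). Its log2 changes were -0.14 at 53 mGy/h and 0.44 at 1 yr, without a call. Because of the shared control these counts are given as values and not as a result.

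Set against each other, the irradiated groups of the first brood need no control value. The 53 mGy/h group was above the 8.7 mGy/h group in all 128 members, with a median log2 difference of 2.22 and a range of 1.71 to 3.05, against a median of 0.12 over the 9872 genes. This difference has no test, since the authors' tables do not make the comparison, and the level at 53 mGy/h that it contains was used to choose the genes. For luzp1, a leucine zipper gene of the actin cytoskeleton, the levels were 8.90 RPM in control, 13.3 RPM at 8.7 mGy/h and 96.7 RPM at 53 mGy/h. For the kinase gene mknk1 they were 29.8 RPM in control, 28.9 RPM at 8.7 mGy/h and 130 RPM at 53 mGy/h. The intermediate group was thus above control for luzp1 and at 0.04 log2 below it for mknk1, and neither difference was called.

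**Figure D3:**
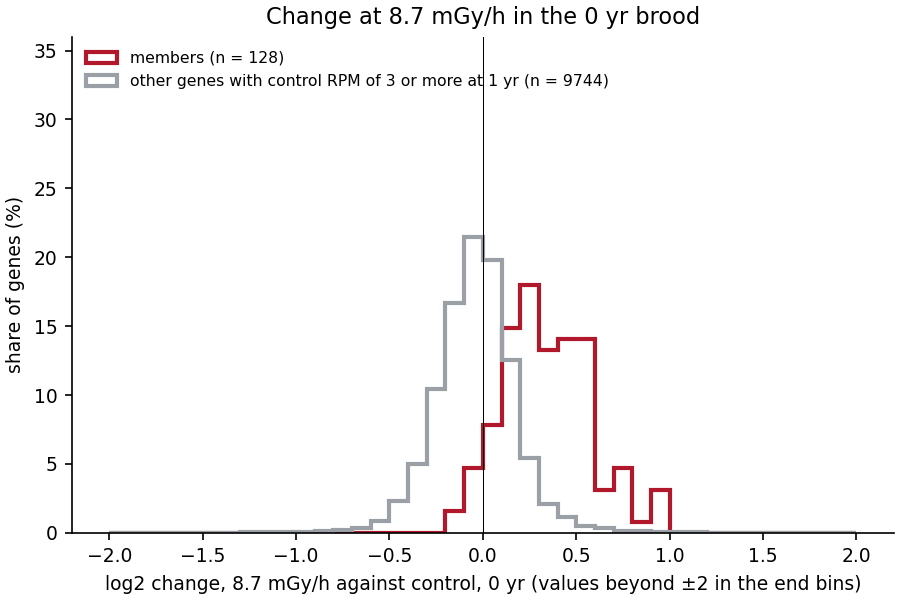
Share of genes in percent (y axis) by log2 change at 8.7 mGy/h against control in the 0 yr brood (x axis), for the 128 members (red) and the other genes with a control level of at least 3 RPM at 1 yr (grey). The members have a median of 0.32 and a range of -0.17 to 0.96, and the 0 yr control is shared with the 53 mGy/h comparison by which they were chosen.

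Maternal and germ plasm genes among the members included some of the best known egg transcripts. The gene sox19b, whose product opens chromatin with Pou5f3 and Nanog when the zygotic genome is activated, was at 70.1 RPM in control, 84.3 RPM at 8.7 mGy/h and 522 RPM at 53 mGy/h at 0 yr, and at 54.0 RPM at 8.7 mGy/h and 119 RPM in control at 1 yr. The gene buc (bucky ball), required for the Balbiani body and germ plasm assembly, was at 44.3 RPM in control, 62.1 RPM at 8.7 mGy/h and 314 RPM at 53 mGy/h at 0 yr, and at 24.1 RPM at 8.7 mGy/h and 58.7 RPM in control at 1 yr. For cpeb1b, which controls translation through cytoplasmic polyadenylation, the levels were 13.5 RPM in control, 18.7 RPM at 8.7 mGy/h and 88.8 RPM at 53 mGy/h at 0 yr, and 11.4 RPM at 8.7 mGy/h and 38.8 RPM in control at 1 yr. Its log2 change of -1.77 at 1 yr was the lowest of the set. In GRCz10 sox19b spans 26223390 to 26226754 on chromosome 7 and buc spans 28199466 to 28203585 on chromosome 2.

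The Tudor domain genes tdrd6 and tdrd1, whose products scaffold germ granules and the piRNA machinery, were also members. The level of tdrd6 was 79.7 RPM at 53 mGy/h and 9.48 RPM in control at 0 yr, and 9.38 RPM at 8.7 mGy/h and 21.6 RPM in control at 1 yr. A second listed gene, TDRD6 (2 of 2), was not a member and had log2 changes of 1.80 at 53 mGy/h and -1.15 at 1 yr, both called in the authors' deposited table. The level of tdrd1 was 77.0 RPM at 53 mGy/h and 15.2 RPM in control at 0 yr, and 7.78 RPM at 8.7 mGy/h and 18.6 RPM in control at 1 yr.

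These genes belong to a list of 48 maternally supplied transcripts, of which 43 were listed and 5 were members (buc, cpeb1b, sox19b, tdrd1 and tdrd6). At 53 mGy/h 18 of the 43 rose and 9 fell, with a median log2 change of 0.42, and at 1 yr 8 rose and 23 fell, with a median of -0.44. Of all genes 22.1% rose and 21.5% fell at 53 mGy/h, and 20.0% rose and 22.4% fell at 1 yr. At 8.7 mGy/h (0 yr) 0 of the 43 were called and the median was 0.04. Summed over the 43 genes, the level was 9580 RPM in control, 9794 RPM at 8.7 mGy/h and 9517 RPM at 53 mGy/h at 0 yr, and 10902 RPM at 8.7 mGy/h and 10305 RPM in control at 1 yr. Without the 5 members the sums were 9428, 9596 and 8436 RPM in control, 8.7 mGy/h and 53 mGy/h at 0 yr, and 10796 RPM at 8.7 mGy/h and 10048 RPM in control at 1 yr. Among the other listed genes eomesa, atr and mdm4 had log2 changes of 2.25, 2.40 and 2.92 at 53 mGy/h. At 1 yr they had -0.88, -0.95 and -0.57, and each was called in both comparisons in the authors' deposited tables. The egg transcript genes nanog and ctcf were also among the other listed genes. The gene nanog was at 1037 RPM at 53 mGy/h and 1138 RPM in control at 0 yr, with an FDR of 0.157, and ctcf fell to 633 RPM at 53 mGy/h, against 1199 RPM in control.

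A list of 59 transcripts that the early gastrula makes itself held no member. At 53 mGy/h 43 of the 46 listed genes fell and 2 rose, with a median log2 change of -2.37, and at 1 yr 37 of 54 rose and 1 fell, with a median of 0.31. Summed over the 46 genes in all 3 tables, their level was 3424 RPM in control, 3621 RPM at 8.7 mGy/h and 851 RPM at 53 mGy/h at 0 yr, and 6843 RPM at 8.7 mGy/h and 5636 RPM in control at 1 yr. These levels moved opposite to the members' in both comparisons, and their part in the members' changes was not tested. A list of 30 markers of later tissues, adult gonad and blood held no member either. Only 6, 5 and 3 of these markers were listed in the 3 tables, and the 3 in all tables summed to 65.9 RPM in control, 77.7 RPM at 8.7 mGy/h and 90.4 RPM at 53 mGy/h at 0 yr, and to 44.0 RPM at 8.7 mGy/h and 53.4 RPM in control at 1 yr. Of a chosen list of 34 p53 targets 28 were listed and 0 were members, with 11 rising and 5 falling at 53 mGy/h and 3 rising and 6 falling at 1 yr. The shares of all genes were 22.1% up and 21.5% down at 53 mGy/h, and 20.0% up and 22.4% down at 1 yr. The member cdip1, described as cell death-inducing p53 target 1, was not on that list. Its log2 changes were 2.05 at 53 mGy/h and -1.18 at 1 yr. Members were 1.30% of the genes that could meet the rule, so no result is read from short lists without a member.

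The members were sorted into 16 functional classes by gene symbol alone, each gene into the first class it matched. Genes whose symbol matched no class stayed unclassed, whatever their description. In total 75 members (58.6%) fell into a class, against 39.6% of the 9875 genes. The largest class was ubiquitin ligases and deubiquitinases, with 10 members (7.81%, against 3.32% of the 9875 genes). Regulators of Ras, Rap, Rab and Arf GTPases held 9 members (7.03%, against 1.85%), and the class of other transcription factors held 8 (6.25%, against 2.72%). RNA binding, decay and translation control held 7 (5.47%, against 3.92%), phosphatases 6 (4.69%, against 1.47%), zinc finger transcription factors 5 (3.91%, against 1.95%) and kinases 5 (3.91%, against 3.26%). Chromatin and transcription coregulators, 3.31% of the 9875 genes, held 0 by symbol, though the coactivator gene mkl1b was sorted with the other transcription factors. The class patterns were chosen with earlier results of these data known, and some name single genes that are members, such as luzp1 and buc. A higher share among the members may therefore be built into the classes. These shares are descriptions, since classes and members were not tested against each other.

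**Figure D4:**
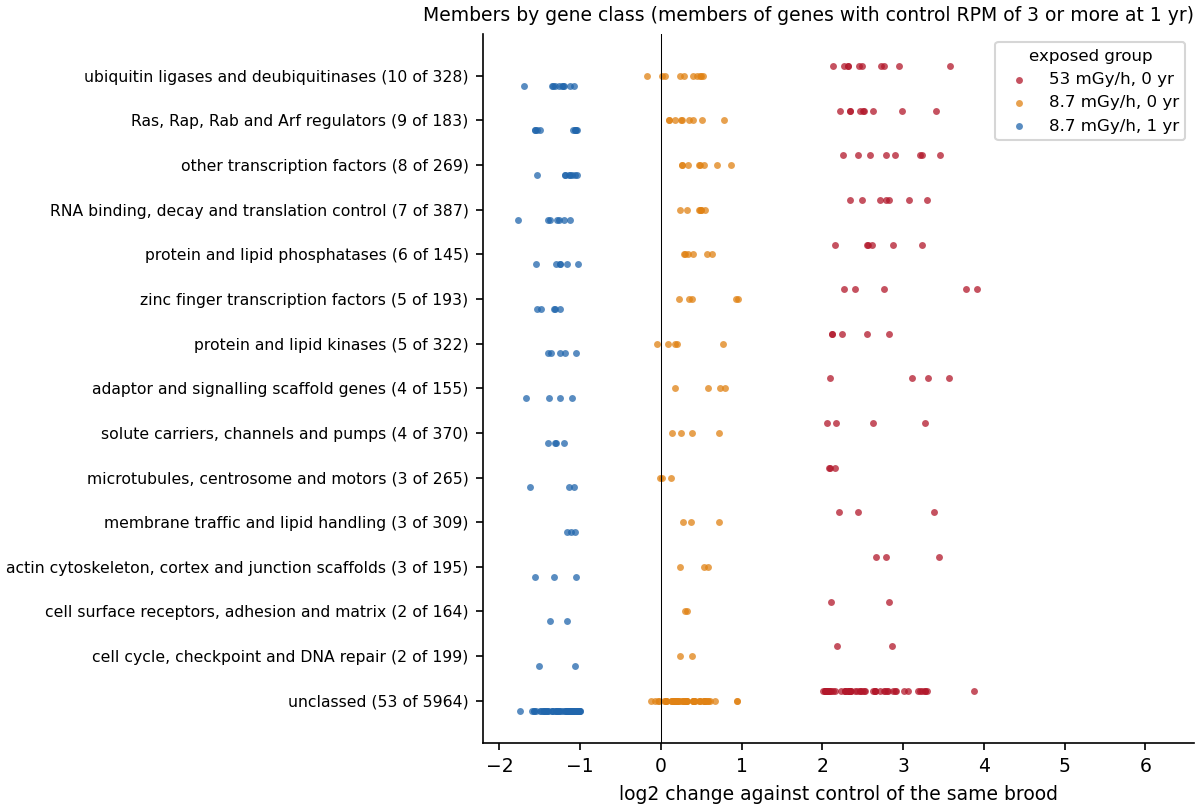
Log2 change of each member against the control of its brood (x axis) by gene class (y axis), for 53 mGy/h at 0 yr (red), 8.7 mGy/h at 0 yr (orange) and 8.7 mGy/h at 1 yr (blue). Labels give members and genes of the class with a control level of at least 3 RPM at 1 yr, from 10 of 328 ubiquitin genes downwards, and 1 class of 4 members is left out. The rule placed the red points at 2 or above and the blue points at -1 or below.

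Small GTPases switch membrane traffic and the cytoskeleton on and off, and 9 members were sorted by symbol into the class of Ras, Rap, Rab and Arf regulators. The DENN domain exchange factor gene sbf2 was at 3.87 RPM in control, 6.67 RPM at 8.7 mGy/h and 41.2 RPM at 53 mGy/h at 0 yr, and at 6.24 RPM at 8.7 mGy/h and 13 RPM in control at 1 yr. The Arf GTPase activating protein genes asap3 and arap3 had log2 changes of 2.99 and 2.51 at 53 mGy/h, and of -1.55 and -1.53 at 1 yr. The other members of the class were rab11fip4b and rab11fip5a, described as Rab11 interacting proteins, iqsec1b, RABGAP1, SIPA1L3 and rab20, itself a Rab GTPase gene. As a whole class, 66 of 223 genes (29.6%) rose and 31 (13.9%) fell at 53 mGy/h, where 22.1% of all genes rose and 21.5% fell. At 1 yr 23 of 217 (10.6%) rose and 84 (38.7%) fell, where 20.0% of all genes rose and 22.4% fell.

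Actin binding members were luzp1 and afap1l1a, with log2 changes of 3.44 and 2.79 at 53 mGy/h and of -1.32 and -1.56 at 1 yr. The slingshot phosphatase genes ssh1a and ssh2a, whose products activate the actin severing protein cofilin, had log2 changes of 2.56 and 2.57 at 53 mGy/h and were 2.37-fold lower each at 1 yr. The ankyrin repeat gene ankrd44, placed in the actin class by its symbol like all others, had log2 changes of 2.67 at 53 mGy/h and -1.06 at 1 yr.

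Ubiquitin ligases mark proteins for removal and deubiquitinases take the mark off. The ligase gene znrf3, whose product removes Wnt receptors from the cell surface, was at 1.73 RPM in control, 2.49 RPM at 8.7 mGy/h and 20.6 RPM at 53 mGy/h at 0 yr, and at 2.34 RPM at 8.7 mGy/h and 5.11 RPM in control at 1 yr. The ligase gene DTX3 of the Deltex family had log2 changes of 2.95 at 53 mGy/h and -1.34 at 1 yr, and traf3, a ligase of immune receptor signalling, had 2.46 and -1.69. The members usp20, USP31, usp33 and usp45 encode ubiquitin specific proteases. Of the whole class, 137 of 418 genes (32.8%) rose and 45 (10.8%) fell at 53 mGy/h, where 22.1% of all genes rose and 21.5% fell. Of 378 listed at 1 yr 12.4% rose and 32.8% fell, where 20.0% of all genes rose and 22.4% fell.

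The transcription factor members came from several families. The level of mkl1b at 53 mGy/h was 41.6 RPM, against 3.80 RPM in control, and at 1 yr it was 3.86 RPM at 8.7 mGy/h and 8.06 RPM in control. The homeobox gene cux1a and the stress-responsive bZIP gene atf5a had log2 changes of 3.24 and 3.20 at 53 mGy/h, and of -1.18 and -1.19 at 1 yr. The class also held the circadian repressor gene cry1b, the nuclear receptor genes thraa and nr2c2, and creb3l3l. The zinc finger members besides hivep3b and zbtb1 were IKZF4, zbtb18 and znf652, and IKZF4 had log2 changes of 2.76 and -1.32. Of the whole class of other transcription factors, 127 of 401 (31.7%) rose and 98 (24.4%) fell at 53 mGy/h, and 93 of 351 (26.5%) rose and 78 (22.2%) fell at 1 yr. Of the zinc finger class, 82 of 272 (30.1%) rose and 76 (27.9%) fell at 53 mGy/h, and 54 of 241 (22.4%) rose and 47 (19.5%) fell at 1 yr. Over all genes the shares were 22.1% and 21.5% at 53 mGy/h, and 20.0% and 22.4% at 1 yr.

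RNA regulators included bicc1a, whose Drosophila relative Bicaudal C represses translation in the egg, with 35.7 RPM at 53 mGy/h and 3.64 RPM in control at 0 yr, and 3.05 RPM at 8.7 mGy/h and 8.04 RPM in control at 1 yr. The decapping complex gene lsm1 had log2 changes of 2.79 and -1.37, and the argonaute gene ago1, which acts with microRNAs, had 2.49 and -1.12. Next to ago1 on chromosome 16 lies CR762469.1, described as argonaute-3, whose log2 changes were 2.34 and -1.30. It was picked out for its place and not by the naming rule. Of the whole class, 76 of 416 genes (18.3%) rose and 89 (21.4%) fell at 53 mGy/h, where 22.1% of all genes rose and 21.5% fell. At 1 yr 135 of 408 (33.1%) rose and 79 (19.4%) fell, where 20.0% of all genes rose and 22.4% fell.

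Kinases and phosphatases of the set act in metabolism and signalling. The AMP-activated kinase subunit gene prkab1a had log2 changes of 2.83 at 53 mGy/h and -1.40 at 1 yr, and csnk1g1, a casein kinase gene, had 2.55 and -1.05. The kinase gene mknk1, whose product phosphorylates the cap-binding factor eIF4E, was at 13.3 RPM at 8.7 mGy/h and 34.3 RPM in control at 1 yr. The phosphatase regulator genes phactr4a, which binds actin, and ppp1r3da, which targets phosphatase to glycogen, had 3.24 and 2.62 at 53 mGy/h, and -1.29 and -1.55 at 1 yr. The calcineurin catalytic subunit gene ppp3cca had 2.88 and -1.03. Of the adaptor genes, gatsl3, the arginine sensor of the growth kinase mTOR in human cells, had a log2 change of 3.31 at 53 mGy/h and was 2.37-fold lower at 1 yr, and the insulin receptor substrate gene irs4a had log2 changes of 3.12 and -1.10.

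Transport and organelle genes completed the named members. The calcium pump gene atp2a2a of the endoplasmic reticulum was at 18.5 RPM in control, 24.2 RPM at 8.7 mGy/h and 114 RPM at 53 mGy/h at 0 yr, and at 15.0 RPM at 8.7 mGy/h and 36.9 RPM in control at 1 yr. The gene dnajc5ga, of the cysteine-string protein family of DnaJ chaperones, was at 16.6 RPM in control, 18.5 RPM at 8.7 mGy/h and 115 RPM at 53 mGy/h at 0 yr, and at 11.2 RPM at 8.7 mGy/h and 30.6 RPM in control at 1 yr. The peroxisomal transporter gene abcd3a had log2 changes of 3.28 and -1.32, and the anion exchanger gene slc26a11 had 2.17 and -1.40. The lipid transfer gene stard7 had 3.38 and -1.11, the mitochondrial fission gene dnm1l 2.45 and -1.07, and vps9d1, with a VPS9 domain of Rab exchange factors, 2.21 and -1.17. The mitochondrial fusion gene opa1 and the mitochondrial protease gene afg3l2 were members outside the classes, named after their values were seen, with log2 changes of 2.82 and 2.23 at 53 mGy/h, and of -1.48 and -1.16 at 1 yr. The microtubule class held mtus1a, camsap1b and CCDC69, with 2.16, 2.09 and 2.08 at 53 mGy/h.

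The teleost genome duplication left many zebrafish genes in pairs with symbols ending in a and b, and in most pairs here only 1 copy was a member. Of 40 members with such a symbol 25 had a listed partner, and fam129ba and fam129bb were each other's partner and both members. Of the other partners 22 were listed at 53 mGy/h, where 8 rose and 5 fell with a median log2 change of 0.37. At 1 yr 22 were listed, where 3 rose and 6 fell with a median of -0.33. Among all genes 22.1% rose and 21.5% fell at 53 mGy/h, and 20.0% rose and 22.4% fell at 1 yr. The partners camsap1a, micall2a, pfkfb2a, ppp3ccb and ptpn4a rose at 53 mGy/h and fell at 1 yr. The partners sox19a and mtus1b did the reverse. The zygotically expressed sox19a was at 31.8 RPM at 53 mGy/h and 179.9 RPM in control at 0 yr, and at 299 RPM at 8.7 mGy/h and 279 RPM in control at 1 yr, with FDRs of 1.93e-16 and 0.0107 in the authors' deposited table. The calcium pump partner atp2a2b was at 248 RPM at 53 mGy/h and 216 RPM in control at 0 yr, without a call. The members had been selected for large changes and their partners had not, so a smaller change in the partners is not tested here.

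**Figure D5:**
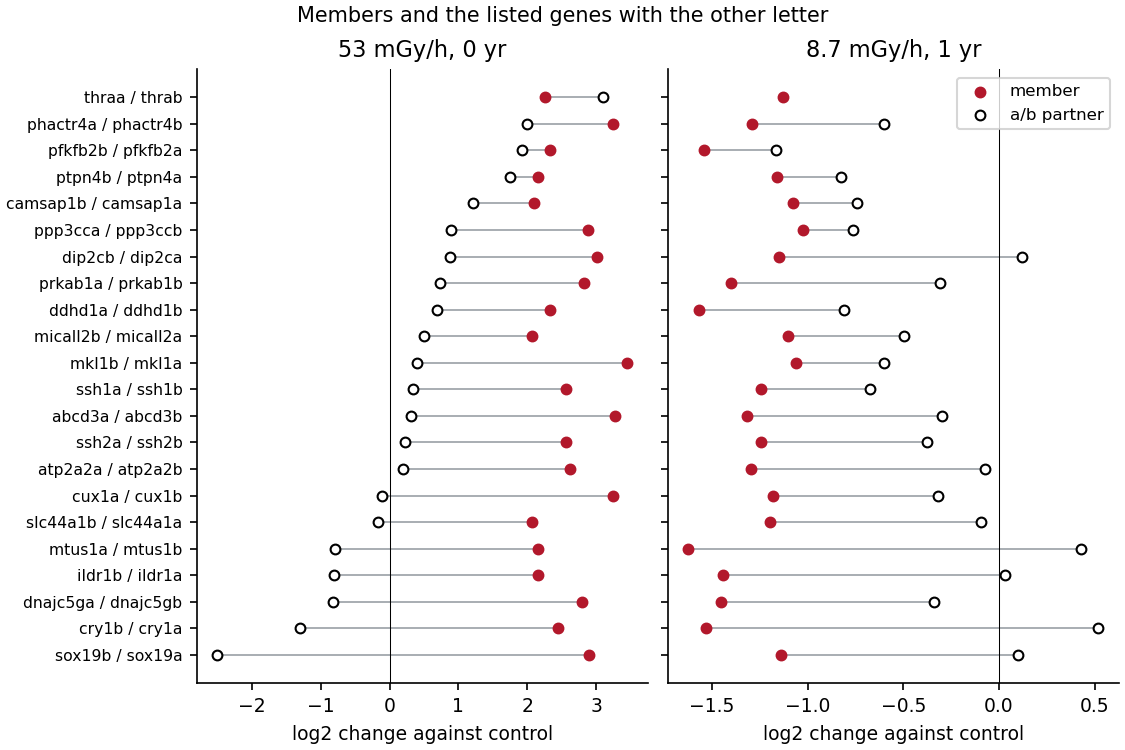
Log2 change against control (x axes) of members (filled) and of the gene with the same symbol and the other letter (open), for 53 mGy/h at 0 yr (left) and 8.7 mGy/h at 1 yr (right), in order of the partner's change at 53 mGy/h. The open points run from -2.50 for sox19a to 3.10 for thrab, which has no value at 1 yr. The level of thrab was low, at 1.85 RPM at 53 mGy/h and 0.22 RPM in control at 0 yr.

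The members lay on all 25 chromosomes. Of the genes that could meet the rule, members were 10 of 585 on chromosome 5, 9 of 369 on chromosome 17, 8 of 463 on chromosome 2 and 8 of 312 on chromosome 18. The fewest were 1 of 431 on chromosome 19. These counts were not tested. Only 2 pairs were direct neighbours among listed genes, txndc16 with gpr137c on chromosome 17 and CR762469.1 with ago1 on chromosome 16, the second pair 12.1 kb apart. Members had a median genomic span of 26.9 kb, with quartiles of 13.2 and 57.4 kb, against 17.8 kb with quartiles of 8.70 and 38.4 kb over the 9875 genes. Spans under 5 kb were found in 6 members (4.69%) and in 11.1% of the 9875 genes. Spans were read from the files' coordinates, include introns and were not tested, since the members were chosen on measured values. The 100 genes that met the limit at 53 mGy/h and not the limit at 1 yr had a median span of 28.5 kb, and the 314 that met the 1 yr limit and not the limit at 53 mGy/h had 40.6 kb.

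Some members share sequence or position with other listed genes, which limits their values. Of the 128, 18 overlap another listed gene, 14 of them on the opposite strand. The whole of mtus1a lies within slc7a2 on the opposite strand, and slc7a2 fell to 0.49 RPM at 53 mGy/h, against 3.98 RPM in control. The genes nr2c2 and bend5 lie wholly within cacna1db and agbl4 on the same strand, and those hosts had log2 changes of 0.11 and 0.31 at 53 mGy/h. The overlapping pair gpr137c and txndc16 were both members. The overlap of tdrd6 with pla2g7 on the opposite strand is 2536 bases long, and pla2g7 had log2 changes of 1.42 at 53 mGy/h and -1.04 at 1 yr. That of DTX3 with ptges3a, also on the opposite strand, is 8080 bases long, or 40.5% of the span of DTX3. In control at 0 yr ptges3a was at 38.2 RPM and DTX3 at 4.06 RPM. The log2 changes of ptges3a were 0.07 at 53 mGy/h and -0.20 at 1 yr. The set has 6 members that share a symbol with another listed identifier, so their reads could be divided between copies.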

How the data were processed

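The 14 libraries were grouped by the dose rate and breeding time in the labels. Per the submitters' processing notes, the build was GRCz10 and the tools included STAR 2.5.2b, Trim Galore 0.4.2, DESeq2 and FastQC 0.11.5; their roles are not given in the sources used here. Each of the 3 deposited tables sets 1 exposed group against its control. Deposited values per group are log2 RPM and linear RPM, a read count scaled to library size by the authors. The authors' further columns are a ratio of exposed to control, a signed fold change treated here as a score, and an FDR (a deposited p-value after adjustment, with its test unnamed).

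The tables were joined by gene identifier and the log2 RPM values subtracted. The 53 mGy/h table lists 13714 genes, and those for 8.7 mGy/h list 13263 (0 yr) and 12502 (1 yr); the 0 yr comparisons share their control values. Called means a deposited FDR under 0.05. A planned test per library was not possible without library values, so p-values come from the authors alone and may cover technical spread only. Depth was recovered from the 150 lowest values of each group, all of which gave whole reads (tolerance 0.04). The steps were tested on simulated data. Scripts used pandas 2.3.3, scipy 1.17.1 and numpy 2.4.6 under Python 3.11.15.

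The members, the gene lists and the classes were chosen with earlier results of these data known. Named were the 12 members with the largest difference between both changes, the 8 with the highest control RPM at 1 yr, the first 3 of each class with 3 or more members, the 3 highest and 3 lowest at 8.7 mGy/h (0 yr) and the 3 genes on each side of every limit; genes with only a clone name outside the first group were counted and mostly left unnamed. Other names were chosen after values were seen, and the list genes, partners, neighbours and overlapping genes for their relation to a member. Alternatives changed the control level, the pseudocount, the centring, the limits and the FDR. Coordinates are those of the files; no sequence is printed, since none was used here. The results of 1 class are not reported here.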

Additional observations from a re-analysis of the deposited data

How the results depend on the processing

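The number of genes meeting the rule depends on its limits. It was 128 as reported, 58 with a control level of at least 10 RPM at 1 yr and 60 with a pseudocount of 1 RPM, which shrinks the changes of genes with low counts. It was 377 with both limits looser and 35 with both stricter, in each case by 0.5 on the log2 scale at 53 mGy/h and by 0.25 at 1 yr. With a control level of at least 1 RPM it was 156, and after centring on the median change of all genes it was 89, both within 1.5 times the reported number. At an FDR under 0.1 in place of 0.05, 1 member (mkl1b) was called at 8.7 mGy/h (0 yr), and at 0.01 it was 0. The median change at 8.7 mGy/h (0 yr) ran from 0.28 to 0.36 over its alternatives, and 125 members lay above 0 after centring. Of the 100 members with a 0 yr control of 3 RPM or more, 92 lay above 0.

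No paired analysis was possible because the tables hold 1 pooled value per group. Leaving out a library was not run for the same reason. Spread between libraries, clutches and parents is unknown, the 0 yr control rests on 2 libraries, and 0 yr and 1 yr levels were normalized separately.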

Other observations

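Of the 100 genes that met the limit at 53 mGy/h and stayed above -1 at 1 yr, some with a role in the DNA damage response are named. They were picked out after their values were seen, and atr and mdm4 also belong to the list of maternally supplied transcripts. The checkpoint kinase gene atr was at 31.1 RPM at 53 mGy/h and 5.91 RPM in control at 0 yr, and at 3.61 RPM at 8.7 mGy/h and 6.97 RPM in control at 1 yr, a log2 change of -0.95. The kinase gene atm had log2 changes of 2.72 at 53 mGy/h and -0.94 at 1 yr, and the p53 regulator gene mdm4 had 2.92 and -0.57. The cyclin-dependent kinase inhibitor gene cdkn1a had 2.23 and -0.24, and the Fanconi anemia gene fanci had 2.02 and -0.67. At 53 mGy/h the FDR in the authors' deposited table was 0.00813 for cdkn1a and 2.87e-24 for fanci. In the authors' deposited table atr, atm and mdm4 were called down at 1 yr, and cdkn1a and fanci were not called at 1 yr. Of the whole class of cell cycle, checkpoint and DNA repair genes, 56 of 230 (24.3%) rose and 50 (21.7%) fell at 53 mGy/h, against 22.1% and 21.5% of all genes. At 1 yr 45 of 223 (20.2%) rose and 53 (23.8%) fell, against 20.0% and 22.4% of all genes. Of the 100 genes 80 were called down at 1 yr in the authors' deposited table, where 22.4% of all genes were. Their median log2 change at 8.7 mGy/h (0 yr) was 0.26, against -0.03 over the 9872 genes with a value, and the 0 yr control is shared with the 53 mGy/h comparison that chose them.

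Only 5 of the 228 genes with a log2 change of 2 or more at 53 mGy/h were at 0 or above at 1 yr. The p53 target gene phlda3 was at 30.1 RPM at 53 mGy/h and 5.51 RPM in control at 0 yr, and at 3.83 RPM at 8.7 mGy/h and 3.75 RPM in control at 1 yr. The interferon-induced gene isg15 was at 44.0 RPM at 53 mGy/h and 10.3 RPM in control at 0 yr, and at 5.22 RPM at 8.7 mGy/h and 5.11 RPM in control at 1 yr. The lysosomal protease gene ctsh was at 11.6 RPM at 53 mGy/h and 2.66 RPM in control at 0 yr, and at 5.19 RPM at 8.7 mGy/h and 3.26 RPM in control at 1 yr, where it was called up with an FDR of 0.0193 in the authors' deposited table. The others were rnaseh1 and si:ch1073-190k2.1, and the second was called at 8.7 mGy/h (0 yr), with 19.1 RPM at 8.7 mGy/h and 6.29 RPM in control.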
